A study of Homo sapiens with 8 samples.

Results

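The response of 5637 cells, an established human bladder cancer (BLCA) line, to melatonin was followed across 4 doses. The 4 libraries of this line were from cells given DMSO alone (0 mM) or melatonin at 1, 2 or 4 mM for a day, all labelled WT in genotype and kept in RPMI medium with serum. Each dose has 1 library, so no dose has a replicate, and a dose and its library cannot be told apart. The sources used here do not give the number of cultures behind a library. The other 4 libraries of the series are of UM-UC3 cells, a second BLCA line kept in MEM, at the same doses. Of 60612 genes in the deposited table, the 12405 with a mean of at least 1 FPKM over the 4 libraries of 5637 cells were taken. FPKM are fragments per kilobase of transcript, relative to the depth of the library, so that levels can be set side by side between genes. The sheet does not name its unit, and FPKM was inferred from the values. At the edge of the choice, H4C2 and LINC01534 were just inside with means of 1.0002 and 1.0008 FPKM, and C19orf71 and AC012467.2 were just outside with 0.9997 and 0.9995 FPKM.

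Melatonin is the hormone of the pineal gland, and it is a lipophilic molecule that enters cells and also acts on the surface receptors MT1 and MT2. The doses used here are pharmacological. Cells that meet a shortage of amino acids or an overload of the endoplasmic reticulum (ER) pause most protein synthesis and switch on a set of genes through the transcription factor ATF4, which is known as the integrated stress response. The basal cells of the urothelium carry keratins, TP63 and integrins that anchor them to the basement membrane, and many BLCA lines keep a part of that identity.

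The deposited values of the 4 libraries summed to between 332961 and 342526 FPKM, and the read depth is unknown. The 13 protein genes of the mitochondrial genome took 10.7, 13, 14 and 14.4% of these sums at 0, 1, 2 and 4 mM, and the part of that shift in the results below was not tested. All 10 markers of urothelial and epithelial cells were measured, and their summed level was 3856, 3347, 2636 and 1014 FPKM in the same order. In bulk RNA, fewer cells of a type and less RNA per cell cannot be told apart. Endothelial markers were 0 of 8 measured, with a summed level between 0.138 and 0.524 FPKM, and fibroblast markers 2 of 9, with a summed level between 8.18 and 10.6 FPKM, mostly COL1A1. Of 11 leukocyte markers 5 were listed at 0 in all 4 libraries, among them PTPRC, CD3D and CD3E, and the summed level ran between 0.165 and 5.15 FPKM. CD68, a lysosomal membrane protein, had 0.467, 0.067, 1.09 and 4.85 FPKM at 0, 1, 2 and 4 mM and was most of that sum at 0, 2 and 4 mM.

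The number of genes that departed from DMSO grew with each dose. On the log2(FPKM + 1) scale, 41 genes were at least 2-fold higher (0.331% of all genes tested) and 115 at least 2-fold lower (0.927%) at 1 mM than in DMSO. At 2 mM 377 genes were at least 2-fold higher (3.04%) and 250 lower (2.02%). At 4 mM 1634 genes were higher (13.2%) and 1557 lower (12.6%). Lower genes thus outnumbered higher ones at 1 mM, and at 2 and 4 mM the order depended on the scaling. With the libraries rescaled by trimmed mean factors 300 genes were higher and 307 lower at 2 mM, and 1507 higher and 1672 lower at 4 mM. Between neighbouring doses, 113 genes were at least 2-fold higher and 55 lower at 2 than at 1 mM, and 632 were higher and 836 lower at 4 than at 2 mM. The median absolute difference on the log2 scale was 0.21 between 1 mM and DMSO, 0.19 between 2 and 1 mM and 0.38 between 4 and 2 mM. These are counts of single libraries, with no test.

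A straight line over dose was then fitted with limma to each gene, and each log2 fold change is what that line gives over the span of 4 mM on the log2(FPKM + 1) scale, with its standard error (SE). The scale understates changes of low genes. At an adjusted p under 0.05, 2513 genes rose (20.3%) and 2299 fell (18.5%). Of these 4812 genes, 3522 (73.2%) moved the same way at every step of dose, and 3140 (65.3%) spanned at least 2-fold between their lowest and highest library. The scatter of 4 libraries around straight lines is all that these p-values measure. Each gene has 2 residual degrees of freedom of its own. To these, limma adds a median of 4.83 degrees of freedom from the scatter of the other genes. Without the 4 mM library 1301 genes rose and 810 fell, and 915 and 660 of these were among the genes called with all 4. Without the 1 mM library 1479 rose and 1329 fell. Of 184 called genes whose values are given below, 107 were still called in the same direction without the 4 mM library, 68 were not called, and 9 had a fitted change of the other sign, which stands beside each. Such a fitted change still refers to a span of 4 mM, so it extends a line over 0 to 2 mM beyond the doses used. The choice of dose scale mattered too: with log2(dose + 1) in place of dose 118 of the 184 genes kept their call and 66 did not. With no filter on the mean these numbers were 96 and 88. With rescaled libraries 2394 genes rose and 2570 fell, so which direction is the more frequent depends on the scaling.

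**Figure D1:**
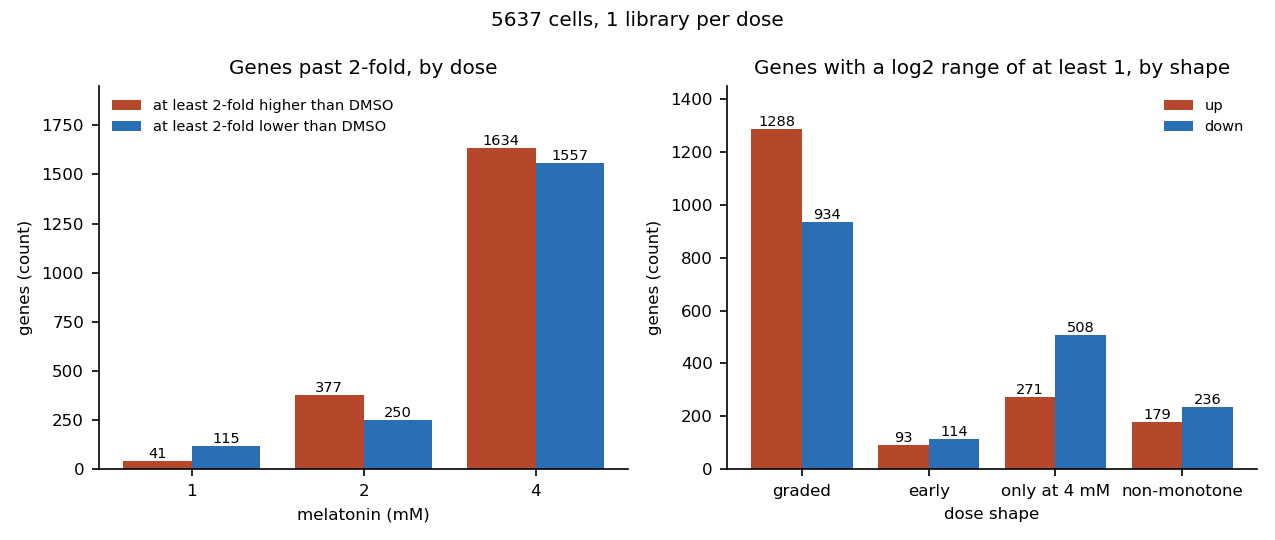
Left, genes of 5637 cells at least 2-fold higher (red) or lower (blue) than in DMSO at each melatonin dose in mM, and right, genes with a log2 range of at least 1 by dose shape and direction, both as counts of genes. Higher genes number 41, 377 and 1634 at 1, 2 and 4 mM, and the graded shape holds 1288 genes up and 934 down.

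The 3623 genes whose log2 values spanned at least 1 (29.2% of 12405) were classed by dose shape. A gene was non-monotone where its steps against the net change summed to at least 25% of its range. Otherwise it was early where 1 mM already gave at least 50% of the change seen at 4 mM, only at 4 mM where 2 mM gave at most 25%, and graded in between, a straight line over dose having 25 and 50% at these doses. The graded shape was the most frequent, with 1288 genes up and 934 down. Only at 4 mM there were 271 genes up and 508 down, early 93 up and 114 down, and non-monotone 179 up and 236 down. Nearly all graded genes were called in the trend (1281 up and 931 down), and so were most genes only at 4 mM (262 and 464). Of the early genes 71 and 85 were called, against 24 and 22 of the non-monotone genes. A call in the trend thus does not mark a graded response. In UM-UC3 cells 2290 of 11908 genes spanned as much (19.2%), of which 70.7% were graded and 13% only at 4 mM, compared with 61.3 and 21.5% in 5637 cells. These shares were not tested, as each line has 1 library per dose.

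Among graded genes with a mean of at least 5 FPKM, the widest spans upwards were those of ASNS, NGFR and CHAC1. ASNS, which makes asparagine from aspartate, had 5.09, 26, 166 and 596 FPKM at 0, 1, 2 and 4 mM (log2 fold change 6.61 ± 0.64 SE, adjusted p = 0.00153). Each dose was above the one before it, and most of the gain on the log2 scale was reached by 2 mM. CHAC1, which degrades glutathione and is a target of ATF4, followed with 0.553, 3.51, 25.3 and 124 FPKM (log2 fold change 6.45 ± 0.46 SE, adjusted p = 0.00112). NGFR, the low-affinity receptor of nerve growth factor, was almost at 0 in DMSO, with 0.0947, 0.33, 4.7 and 95.7 FPKM, and most of its rise came after 1 mM (log2 fold change 6.83 ± 0.62 SE, adjusted p = 0.00139). In the deposited table on GRCh38, ASNS lies at chr7:97851677-97872542, CHAC1 at chr15:40952962-40956512 and NGFR at chr17:49495293-49515008, and all 3 are protein coding.

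Downwards the widest graded spans were those of FST, KRT13 and TP63. FST encodes follistatin, which binds activins, and had 68.1, 29.5, 5.44 and 2.22 FPKM (log2 fold change -4.54 ± 0.56 SE, adjusted p = 0.00256). KRT13, a keratin of the intermediate urothelial layers and of other stratified epithelia, had 21.7, 4.75, 2.11 and 0.0924 FPKM, with the steepest loss already at 1 mM (log2 fold change -4.15 ± 0.46 SE, adjusted p = 0.00203). TP63, the p53 relative that maintains basal epithelial cells, had 54.4, 33.3, 21 and 1.83 FPKM, and its drop was widest between 2 and 4 mM (log2 fold change -4.33 ± 0.39 SE, adjusted p = 0.00139). The 3 genes lie at chr5:53480626-53487134, chr17:41500981-41505705 and chr3:189631389-189897276 on GRCh38.

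The genes of the early shape had at least 50% of their change at 1 mM. SLC38A5, a transporter of glutamine and other neutral amino acids, had 38.7, 6.44, 1.93 and 1.08 FPKM at 0, 1, 2 and 4 mM (log2 fold change -3.98 ± 0.80 SE, adjusted p = 0.010). HAS2, a hyaluronan synthase, had 22.1, 4.38, 0.829 and 0.305 FPKM and fell (log2 fold change -3.96 ± 0.74 SE, adjusted p = 0.00814). H19, an imprinted long noncoding RNA, was lost almost wholly at the lowest dose, with 27.8, 1.77, 1.13 and 0.743 FPKM (log2 fold change -3.43 ± 1.08 SE, adjusted p = 0.0445). In the other direction EGR1, an immediate early transcription factor, had 6.42, 21.1, 19.9 and 35.8 FPKM and rose (log2 fold change 2.01 ± 0.44 SE, adjusted p = 0.0139). ENO2, the neuronal isoform of enolase, had 1.91, 5.17, 12.2 and 9.47 FPKM, and its level at 4 mM was below that at 2 mM although the trend was called (log2 fold change 1.78 ± 0.58 SE, adjusted p = 0.0479). PPL, periplakin of the cornified envelope and desmosomes, had 2.75, 6.88, 14.8 and 14.3 FPKM and also levelled off after 2 mM (log2 fold change 1.96 ± 0.50 SE, adjusted p = 0.0221).

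Other genes had at most 25% of their change on the log2 scale by 2 mM. CCN2, a matricellular growth factor and target of YAP and TEAD, had 2.57, 3.87, 6.86 and 199 FPKM at 0, 1, 2 and 4 mM (log2 fold change 5.95 ± 0.79 SE, adjusted p = 0.00307). SERPINI1, the protease inhibitor neuroserpin, had 0.0651, 0.294, 0.393 and 20.7 FPKM (log2 fold change 4.42 ± 0.80 SE, adjusted p = 0.00731), and NDRG1, a gene induced by hypoxia and stress, dipped at 1 mM and had 9.53, 4.9, 13.2 and 64.7 FPKM (log2 fold change 3.05 ± 0.66 SE, adjusted p = 0.0131). KRT7, a keratin of simple and urothelial epithelium, was high in 3 libraries and low in the last, with 784, 671, 510.0 and 33 FPKM (log2 fold change -4.65 ± 0.73 SE, adjusted p = 0.00493). AMIGO2, a cell adhesion protein, had 54.1, 68.5, 43 and 4.8 FPKM (log2 fold change -3.49 ± 0.65 SE, adjusted p = 0.00794). ANXA8L1 had 63.8, 73.6, 55 and 4.07 FPKM (log2 fold change -3.87 ± 0.75 SE, adjusted p = 0.00895), but it is a near-identical copy of ANXA8, so how the reads were split between both is uncertain.

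The non-monotone genes turned back along the dose range. MMP10 and MMP1, matrix metalloproteinases encoded side by side on chromosome 11, had their lowest values at 2 mM. MMP10 had 50.5, 6.03, 1.84 and 7.11 FPKM, and MMP1 had 118, 19.6, 7.56 and 24.8 FPKM. Neither passed the test for a line over dose (adjusted p = 0.289 and 0.347). SPRR2D and SPRR2A, small proline-rich proteins of the cornified envelope, dipped at 1 mM before they rose, with 2.6, 0.472, 4.25 and 28.3 FPKM and 3.07, 1.29, 3.89 and 12.4 FPKM. The SPRR2 genes are close paralogs, and their split is uncertain. DDIT4, a stress-induced inhibitor of mTORC1, had the same course with 67.6, 38.1, 104 and 247 FPKM (log2 fold change 2.25 ± 0.55 SE, adjusted p = 0.0191). Of 236 non-monotone genes counted as down, 160 had their widest departure from DMSO at 4 mM, 39 at 1 mM and 37 at 2 mM, and of 179 counted as up the same numbers were 78, 28 and 73.

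**Figure D2:**
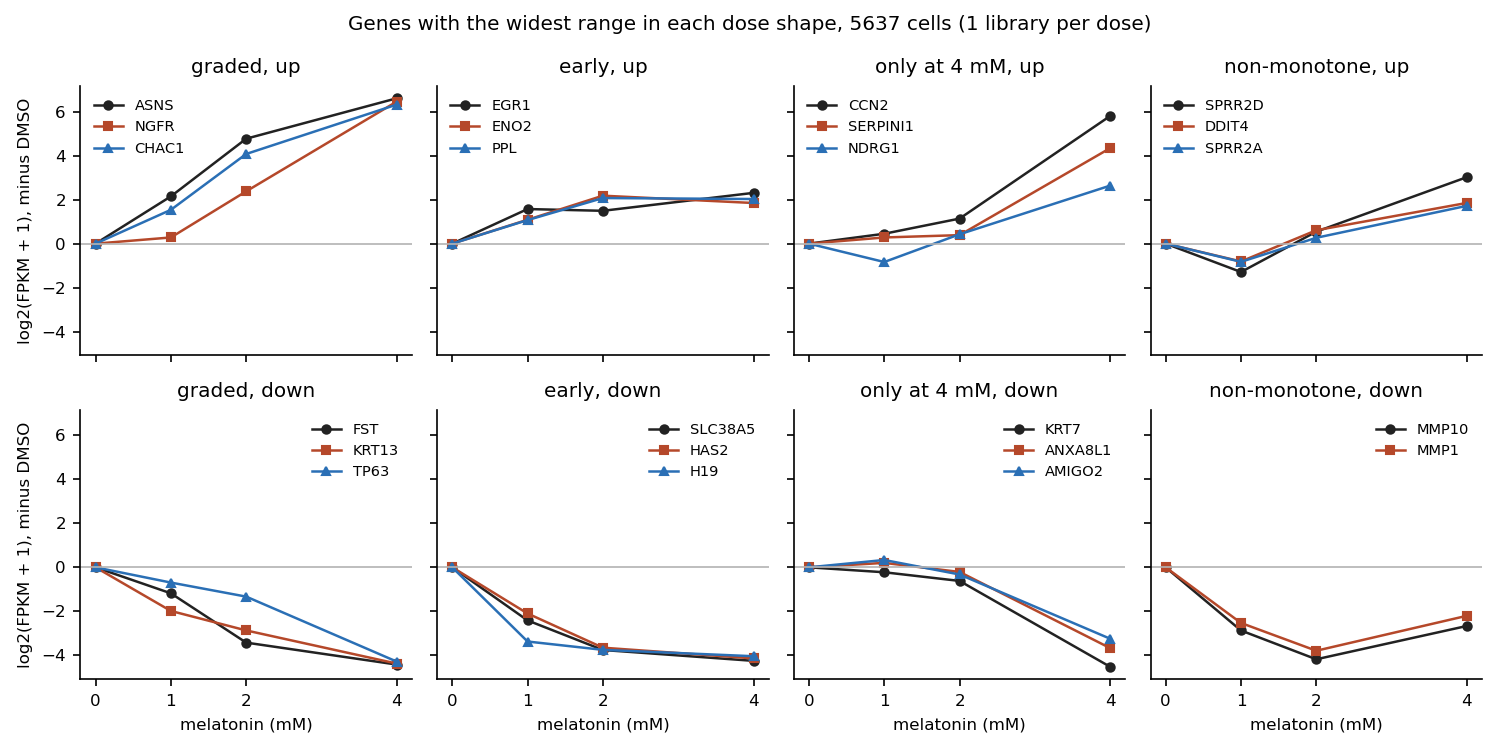
Difference of log2(FPKM + 1) from DMSO over melatonin dose (mM) for up to 3 genes with the widest range in each dose shape and direction, 1 point per library of 5637 cells. ASNS, NGFR and CHAC1 climb by over 6 log2 units, KRT7, ANXA8L1 and AMIGO2 drop between 2 and 4 mM, and MMP10 and MMP1 are lowest at 2 mM.

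The integrated stress response had a median difference of 1.65 on the log2 scale at 4 mM, compared with 0.03 over all genes, and 23 rose (71.9%) and 3 fell (9.38%) of 32 measured (15 and 2 with the 4 mM library left out). The share of each list that rose or fell stands beside its count and is read against 20.3 and 18.5% over all genes, and a share near these is no result about the list. ATF3, a stress-induced transcription factor, rose with 1.6, 2.57, 10.5 and 63.1 FPKM at 0, 1, 2 and 4 mM (log2 fold change 4.84 ± 0.35 SE, adjusted p = 0.00112). PPP1R15A, the phosphatase subunit that ends the pause in translation, had 17.2, 18.4, 51 and 355 FPKM (log2 fold change 4.55 ± 0.46 SE, adjusted p = 0.0017), with little change at 1 mM. SESN2, a stress-induced inhibitor of mTORC1, had 2.68, 4.39, 14 and 47.6 FPKM. The medians of the list at 1, 2 and 4 mM were 0.12, 1.10 and 1.65, and the widest step of the median was between 1 and 2 mM. The 3 genes that fell were ALDH18A1, an enzyme of proline synthesis (29.7, 26.1, 19.9 and 9.68 FPKM), SLC7A5, the large neutral amino acid transporter (462, 327, 378 and 249 FPKM), and CEBPD, a C/EBP transcription factor (11.6, 5.34, 4.83 and 4.19 FPKM).

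The promoters of a few of these genes are printed from the RefSeq table of GRCh38.p14, since the element that ATF4 binds together with C/EBP proteins, TGATGNAAN on either strand, can be read in them. Each line holds the 250 bases before the annotated start, 5′ to 3′ on the strand of the gene, with the match in capitals. The RefSeq start differs from the outer start in the deposited table, and each stretch printed here and for UHRF1 and PRC1 lies wholly or in part inside the deposited range of its gene. ASNS is on the minus strand at chr7:97872409-97872658, CHAC1 on the plus strand at chr15:40953221-40953470, and AARS1 on the minus strand at chr16:70289507-70289756.
ASNS: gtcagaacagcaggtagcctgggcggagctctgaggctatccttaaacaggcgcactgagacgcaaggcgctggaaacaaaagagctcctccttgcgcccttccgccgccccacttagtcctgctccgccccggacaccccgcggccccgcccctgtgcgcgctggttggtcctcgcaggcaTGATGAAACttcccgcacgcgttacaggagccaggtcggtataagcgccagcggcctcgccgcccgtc
CHAC1: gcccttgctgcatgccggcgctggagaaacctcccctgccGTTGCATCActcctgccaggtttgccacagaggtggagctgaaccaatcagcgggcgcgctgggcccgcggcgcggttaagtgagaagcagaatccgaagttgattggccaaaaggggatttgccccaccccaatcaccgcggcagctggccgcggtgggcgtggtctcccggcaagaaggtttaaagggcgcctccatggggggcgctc
AARS1: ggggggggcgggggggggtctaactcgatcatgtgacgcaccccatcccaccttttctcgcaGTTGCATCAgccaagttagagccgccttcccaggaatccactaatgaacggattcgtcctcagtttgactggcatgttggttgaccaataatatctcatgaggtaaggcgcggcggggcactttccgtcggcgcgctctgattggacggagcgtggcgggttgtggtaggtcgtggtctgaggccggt
In ASNS the match is on the printed strand and begins 68 bases before the start, and in CHAC1 and AARS1 it is on the other strand. Such a match was in 4 of 29 promoters found for the integrated stress response list (13.8%; ATF3, ASNS, CHAC1 and FGF21) and in 2 of 16 for the tRNA synthetases (12.5%; IARS1 and AARS1), with 867 of all 27305 promoters of this length (3.18%). A match is a description of letters and no test of binding.

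Enzymes that charge tRNAs with amino acids were split. For the cytosolic aminoacyl-tRNA synthetases, 10 rose (50%) and 5 fell (25%) of 20 measured (7 and 2 with the 4 mM library left out). AARS1, the alanyl enzyme, had 18.6, 30.7, 48.1 and 99.2 FPKM at 0, 1, 2 and 4 mM (log2 fold change 2.34 ± 0.19 SE, adjusted p = 0.00132). GARS1, the glycyl enzyme, rose early and levelled off at 31, 63.3, 90.1 and 94 FPKM, and CARS1, the cysteinyl enzyme, had 14.3, 18.6, 35.1 and 44.8 FPKM. VARS1, the valyl enzyme, fell with 45.4, 27.4, 19.7 and 8.44 FPKM (log2 fold change -2.25 ± 0.19 SE, adjusted p = 0.00132). FARSA, FARSB and KARS1, the enzymes for phenylalanine and lysine, also fell.

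The ER chaperones and folding enzymes changed mainly at the highest dose in their median. Their medians were -0.05, -0.04 and 0.98 at 1, 2 and 4 mM, and 13 rose (61.9%) and 0 fell (0 at an unadjusted p under 0.05) of 21 measured (4 and 0 with the 4 mM library left out). HSPA5, the main ER chaperone BiP, had 278, 259, 242 and 1118 FPKM, so that its 2 lower doses were under DMSO and its highest dose well above (log2 fold change 2.07 ± 0.55 SE, adjusted p = 0.0252). XBP1, a transcription factor of the unfolded protein response, had 33.3, 28.4, 44.6 and 159 FPKM (log2 fold change 2.41 ± 0.42 SE, adjusted p = 0.0063). DNAJB9 and HERPUD1, both of ER-associated degradation and both graded, had 2.17, 2.35, 5.42 and 39.2 FPKM and 10.5, 12.3, 20.3 and 108 FPKM. By dose shape the list had 4 graded genes, 6 only at 4 mM and 2 non-monotone. With the 4 mM library left out HSPA5 had a fitted change of -0.41. Heat shock genes outside the ER, cytosolic and mitochondrial, went in both directions, and 3 rose (16.7%) and 6 fell (33.3%) of 18 measured (0 and 6 with the 4 mM library left out). DNAJB1, a co-chaperone of HSP70, rose with 58.5, 61.6, 73.9 and 281 FPKM, most of it at 4 mM. HSPB1, a small heat shock protein, fell with 71.9, 28.2, 23.5 and 10.1 FPKM, HSPE1, a mitochondrial chaperonin, with 156, 131, 89.4 and 40.9 FPKM, and HSPA8, the constitutive HSP70, with 977, 883, 621 and 384 FPKM.

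**Figure D3:**
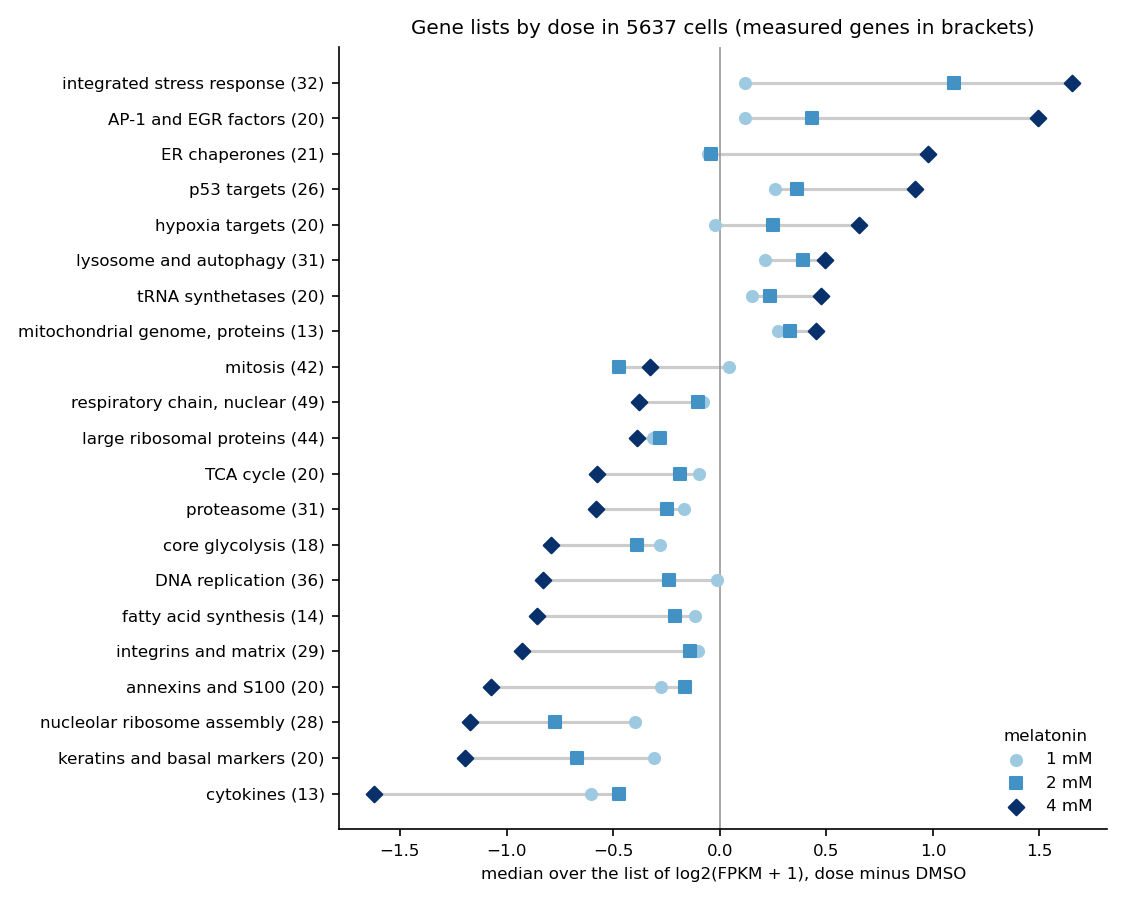
Median over each gene list of the difference in log2(FPKM + 1) from DMSO in 5637 cells at 1 mM (circles), 2 mM (squares) and 4 mM (diamonds), with the number of measured genes in brackets. The integrated stress response reaches 1.65 at 4 mM with 1.10 at 2 mM, the ER chaperones move between 2 and 4 mM, and the cytokines are at -1.62 at 4 mM.

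Of the genes that the study followed at the RNA or protein level, 13 measured here are described. CDKN1A, which encodes the cell cycle inhibitor p21, rose with 18.1, 22.9, 68.7 and 208 FPKM at 0, 1, 2 and 4 mM (log2 fold change 3.65 ± 0.31 SE, adjusted p = 0.00138). BCL2L11, which encodes the pro-apoptotic protein Bim, rose with 5.79, 7.21, 10.4 and 27 FPKM (log2 fold change 2.096 ± 0.23 SE, adjusted p = 0.00203), and SIRT1, a deacetylase, with 9.55, 12.6, 13.8 and 27.4 FPKM (log2 fold change 1.40 ± 0.21 SE, adjusted p = 0.00446). PPARG, the nuclear receptor PPARγ, fell with 53.4, 33.2, 29.7 and 10.3 FPKM, in steps at 1 and 4 mM (log2 fold change -2.19 ± 0.23 SE, adjusted p = 0.00188). ENO1, the main glycolytic enolase, fell with 886, 721, 533 and 331 FPKM (log2 fold change -1.44 ± 0.19 SE, adjusted p = 0.00284).

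The other falling genes of this group were lower by less on the log2 scale, with the exception of ACTB. CDK4, the kinase that drives entry into S phase, had 66, 56, 47.4 and 28.4 FPKM (log2 fold change -1.20 ± 0.18 SE, adjusted p = 0.0046), and HIF1A, the oxygen-regulated transcription factor, had 137, 106, 100.2 and 60.1 FPKM. CDH2, N-cadherin, was a little above DMSO at 1 and 2 mM and lower at 4 mM, with 33.6, 38.4, 37.9 and 14 FPKM (log2 fold change -1.28 ± 0.38 SE, adjusted p = 0.0375). Leaving out the 4 mM library gave it a fitted change of 0.34. MKI67, a marker of cycling cells, had 74.4, 68.4, 44.3 and 38.8 FPKM, and AKT1, a survival kinase, had 62.2, 60.3, 57.9 and 34.5 FPKM. ACTB, β-actin, which is often used as a loading control, had 1998, 1662, 1223 and 709.5 FPKM and fell (log2 fold change -1.53 ± 0.19 SE, adjusted p = 0.00256). BCL2, with 2.32, 2.64, 2.2 and 1.22 FPKM, and H2AX, with 90.2, 91.9, 66.2 and 76.6 FPKM, did not pass the test (adjusted p = 0.104 and 0.354). For H2AX the study followed γH2AX, a marker of DNA breaks, and for AKT the phosphorylated and total protein. Ki67 was stained in xenograft tumours of another BLCA line. The RNA values given here are thus a different measure from those. Below a mean of 1 FPKM were MMP9, which was listed at 0 in DMSO and at 1 and 2 mM and at 0.0389 FPKM at 4 mM, and SNAI1, with 0.119, 0.25, 0.355 and 2.75 FPKM.

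**Figure D4:**
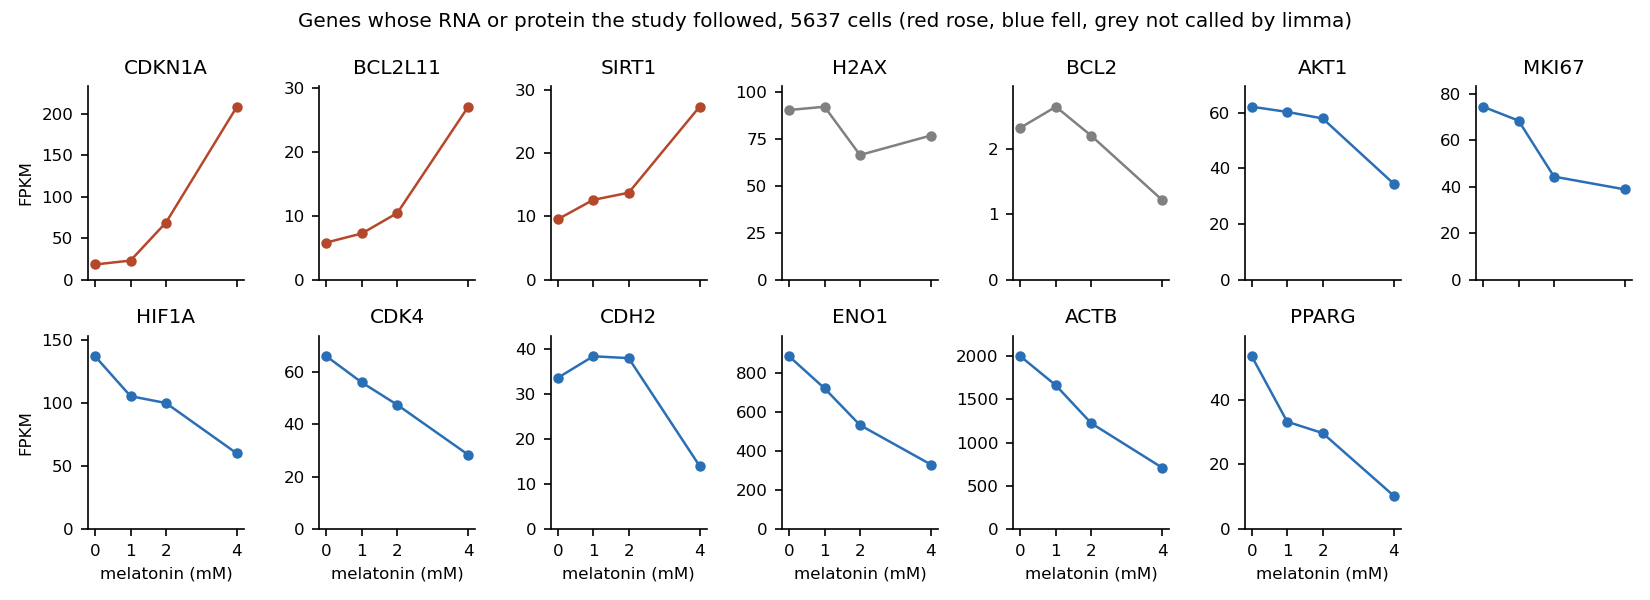
FPKM over melatonin dose (mM) in 5637 cells for 13 measured genes whose RNA or protein the study followed, 1 point per library, each panel with its own axis from 0. CDKN1A, BCL2L11 and SIRT1 (red) rose, 8 genes (blue) fell, and BCL2 and H2AX (grey) did not pass the test.

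The median of the DNA replication list was lowest at 4 mM and that of the mitotic list at 2 mM, a difference that was not tested. For the replication list 2 rose (5.56%) and 19 fell (52.8%) of 36 measured (0 and 4 with the 4 mM library left out), and the medians were -0.01, -0.24 and -0.83 at 1, 2 and 4 mM. UHRF1, which keeps DNA methylation through replication, had 58.2, 46.5, 35.9 and 7.15 FPKM at 0, 1, 2 and 4 mM (log2 fold change -2.91 ± 0.37 SE, adjusted p = 0.00262). POLE2, a subunit of DNA polymerase ε, had 13.8, 12.8, 7.5 and 3.12 FPKM, RRM2, the ribonucleotide reductase subunit, 97.8, 99.5, 66 and 30.4 FPKM, and TYMS, thymidylate synthase, 47.6, 48.1, 40.1 and 15.3 FPKM. Both genes of the list that rose did so at 4 mM. CDC6, a licensing factor, had 32.8, 41, 38.2 and 70.8 FPKM, and GINS4, a part of the replicative helicase, had 12.4, 11, 10.9 and 26.9 FPKM. For mitosis 0 rose (1 at an unadjusted p under 0.05) and 11 fell (26.2%) of 42 measured (0 and 15 with the 4 mM library left out), with medians of 0.04, -0.47 and -0.33. PRC1, which bundles spindle microtubules, had 56.1, 57.9, 32 and 19.6 FPKM (log2 fold change -1.62 ± 0.26 SE, adjusted p = 0.00486), PLK1, a mitotic kinase, 67.4, 51.9, 32.4 and 24.7 FPKM, ESPL1, separase, 15.2, 11.8, 6.87 and 4.92 FPKM, and BUB1B, of the spindle checkpoint, 48.1, 44.9, 29 and 19 FPKM. These mitotic genes, named for the widest differences of their list at 4 mM, were lowest at that dose, unlike the median of the list. When DMSO was left out 17 replication and 6 mitotic genes fell, and without the 1 mM library 15 and 5. The fitted change of GINS4 was -0.34 without the 4 mM library.

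For these cell cycle genes, promoters were read for the E2F site (TTTGGCGC or TTTCCCGC) and for the cell cycle homology region (TTTGAA), on both strands. The promoters of UHRF1 (plus strand, chr19:4909251-4909500) and PRC1 (minus strand, chr15:90994536-90994785) are shown in the same way, with an E2F match in the first and a cell cycle homology match in the second.
UHRF1: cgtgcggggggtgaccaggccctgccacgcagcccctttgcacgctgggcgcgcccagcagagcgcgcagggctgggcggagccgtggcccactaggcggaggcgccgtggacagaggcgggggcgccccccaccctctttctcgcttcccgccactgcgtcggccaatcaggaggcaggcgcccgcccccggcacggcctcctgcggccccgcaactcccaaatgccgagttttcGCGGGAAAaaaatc
PRC1: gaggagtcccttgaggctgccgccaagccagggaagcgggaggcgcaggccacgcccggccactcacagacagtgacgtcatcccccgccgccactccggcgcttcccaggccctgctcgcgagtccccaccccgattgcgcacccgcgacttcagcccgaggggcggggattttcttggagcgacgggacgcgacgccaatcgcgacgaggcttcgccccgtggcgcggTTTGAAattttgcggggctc
Of 32 replication promoters found 12 held the E2F letters (37.5%), with 1.96% of all promoters, and of 35 mitotic promoters 19 held TTTGAA (54.3%), with 13.6% of all.

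Inhibitors of cyclin-dependent kinases (CDKs) did not move as a block. CDKN2B, which encodes p15, rose with 2.06, 4.32, 9.81 and 43.8 FPKM at 0, 1, 2 and 4 mM (log2 fold change 3.91 ± 0.21 SE, adjusted p = 0.00101), and CDKN2D, p19, with 2.77, 4.86, 5.55 and 17.9 FPKM. CDKN1C, p57, was near 0 in 3 libraries and had 0.446, 0.239, 0.815 and 9.35 FPKM. CDKN2A, in contrast, fell with 88.9, 53.4, 59.2 and 21.8 FPKM. Among the kinases and cyclins CDK6 fell with 28.7, 30.5, 21.4 and 8.93 FPKM and CCND1, cyclin D1, with 58.9, 50.7, 37.6 and 34.4 FPKM. Over the list of CDK inhibitors, cyclins and E2F factors, 7 rose (33.3%) and 5 fell (23.8%) of 21 measured (4 and 2 with the 4 mM library left out). For p53 targets 15 rose (57.7%) and 1 fell (3.85%) of 26 measured (10 and 1 with the 4 mM library left out), with a median of 0.92 at 4 mM. GADD45A, a growth arrest gene, had 16.5, 24, 33.7 and 138 FPKM (log2 fold change 3.01 ± 0.28 SE, adjusted p = 0.00148), and TP53INP1, a stress-induced autophagy and apoptosis factor, had 1.77, 2.97, 8.61 and 21 FPKM. FAS, a death receptor, was the target that fell, with 4.17, 4.09, 2.24 and 1.93 FPKM. SESN2 is on both this list and the stress response list. For DNA repair genes 0 rose (1 at an unadjusted p under 0.05) and 6 fell (21.4%) of 28 measured (1 and 1 with the 4 mM library left out), a share of falling genes close to that over all genes. UNG, the uracil glycosylase, was among them with 25.1, 23.4, 22.6 and 6.48 FPKM. The count that fell was 1 without the 1 mM library.

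Genes of apoptosis moved in both directions. In the BCL2 family 6 rose (42.9%) and 1 fell (7.14%) of 14 measured (3 and 0 with the 4 mM library left out). PMAIP1 and BBC3, the pro-apoptotic proteins NOXA and PUMA, had 18.3, 30.6, 48.2 and 88.8 FPKM and 0.415, 0.372, 1.56 and 5.61 FPKM at 0, 1, 2 and 4 mM. BCL2A1, a pro-survival member, was non-monotone with 1.25, 0.165, 0.614 and 11 FPKM. BID, which links death receptors to mitochondria, fell with 29.2, 22.5, 20.1 and 5.63 FPKM (log2 fold change -2.18 ± 0.30 SE, adjusted p = 0.00351). Among death receptor genes 8 rose (47.1%) and 4 fell (23.5%) of 17 measured (0 and 1 with the 4 mM library left out). TNFRSF10B, the TRAIL receptor DR5, had 21, 19.9, 25.6 and 77.6 FPKM (log2 fold change 1.95 ± 0.35 SE, adjusted p = 0.00714), whereas its ligand TNFSF10 fell early with 4.0, 1.4, 1.07 and 0.483 FPKM. TNFRSF21 and TNFRSF1A, 2 further receptors of this family, had 65.2, 54.3, 48.1 and 22.7 FPKM and 34.1, 33.1, 28.8 and 17.3 FPKM and fell. Of the death receptor genes 2 rose without the 1 mM library. The fitted change of BCL2A1 was -0.96 without that of 4 mM.

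Keratins and basal markers fell more often than they rose. Their list also holds keratins that are not basal, such as KRT7 and KRT13, so its counts do not measure basal identity alone. For the keratins and basal markers 1 rose (5%) and 10 fell (50%) of 20 measured (0 and 11 with the 4 mM library left out), with a median of -1.19 at 4 mM. KRT17, a keratin of basal and injured epithelium, lost most of its level at the first dose, with 253, 85.6, 58.5 and 38.4 FPKM at 0, 1, 2 and 4 mM (log2 fold change -2.47 ± 0.45 SE, adjusted p = 0.00749). KRT19, another keratin, fell more evenly with 1229, 939, 688 and 231 FPKM. KRT16 was the one that rose, after a dip, with 2.66, 0.971, 2.47 and 9.64 FPKM, and without the 4 mM library its fitted change was -0.15. CDH1, E-cadherin, rose at each dose, with 36.3, 46.8, 59.9 and 76.4 FPKM (log2 fold change 1.04 ± 0.19 SE, adjusted p = 0.00777). Of 18 luminal genes 2 rose (22.2%) and 2 fell (22.2%) of 9 measured (2 and 2 with the 4 mM library left out). FGFR3, a growth factor receptor of luminal tumours, rose with 1.11, 2.39, 4.15 and 7.97 FPKM, and ERBB3 with 8.88, 11.5, 16.2 and 18.2 FPKM. FABP4, a fatty acid binding protein and known PPARγ target, had 59.6, 8.11, 4.58 and 3.29 FPKM, with the drop at 1 mM (log2 fold change -3.38 ± 0.87 SE, adjusted p = 0.0227).

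Mesenchymal and epithelial markers were mixed, and 5 rose (23.8%) and 6 fell (28.6%) of 21 measured (5 and 2 with the 4 mM library left out). VIM, vimentin, rose with 24, 48.7, 38.9 and 63 FPKM at 0, 1, 2 and 4 mM and OCLN, occludin of tight junctions, with 2.82, 3.72, 5.6 and 11.7 FPKM, while MMP2 fell early with 46.5, 22.3, 19.2 and 13.1 FPKM and TGFBI, a matrix protein, with 126, 90.6, 64.8 and 37.3 FPKM. Among integrins and matrix genes 2 rose (6.9%) and 14 fell (48.3%) of 29 measured (1 and 6 with the 4 mM library left out). ITGB4, the hemidesmosome integrin, had 253, 232, 188 and 51.9 FPKM (log2 fold change -2.33 ± 0.36 SE, adjusted p = 0.00462), ITGB6 15.8, 8.0, 4.83 and 2.38 FPKM, COL7A1, the anchoring fibril collagen, 44.9, 51, 28.8 and 5.05 FPKM, and LAMA5, a laminin chain, 62.1, 58, 44.6 and 10.9 FPKM. ITGB6 was lower at each dose, and the other 3 were lower mainly at 4 mM. PLAUR, the urokinase receptor, rose with 39.3, 32.6, 47.2 and 104 FPKM.

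More caveolar genes, annexins and S100 proteins fell than rose. CAV1, the coat protein of caveolae, had 383, 341, 153 and 34.7 FPKM at 0, 1, 2 and 4 mM (log2 fold change -3.62 ± 0.34 SE, adjusted p = 0.0015), and CAV2 had 74.7, 81.1, 60.3 and 17.5 FPKM. Among caveolar genes 1 rose (16.7%) and 3 fell (50%) of 6 measured (0 and 1 with the 4 mM library left out), and CAVIN1, a coat protein, was the one that rose, with 77.3, 94, 103 and 126 FPKM. For annexins and S100 proteins 1 rose (5%) and 11 fell (55%) of 20 measured (1 and 3 with the 4 mM library left out). S100A2, a calcium-binding protein of basal cells, had 213, 152, 96.3 and 24 FPKM (log2 fold change -3.15 ± 0.26 SE, adjusted p = 0.00132), S100A16 had 141, 91, 74.3 and 27.9 FPKM, and S100A9, a subunit of calprotectin, had 371, 134, 154 and 83 FPKM with its drop at 1 mM. ANXA5, the phosphatidylserine-binding annexin, rose with 135, 180.1, 204 and 299 FPKM.

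Cytokines had a median of -1.62 at 4 mM, next to -1.84 for the 10 urothelial and epithelial markers, and 2 rose (15.4%) and 9 fell (69.2%) of 13 measured (1 and 4 with the 4 mM library left out). IL1B and IL1A, the interleukin-1 ligands, fell from the first dose on, with 52.1, 15.9, 7.77 and 2.06 FPKM (log2 fold change -3.97 ± 0.35 SE, adjusted p = 0.00139) and 79.6, 35.2, 22.7 and 8.74 FPKM. LIF, an interleukin-6 family cytokine, had 11, 7.25, 4.25 and 0.278 FPKM. CXCL1, a chemokine for neutrophils, stayed near its DMSO level until 2 mM, with 39, 32.3, 35.6 and 5.81 FPKM. The 2 that rose were CCL20, with 2.04, 1.34, 3.52 and 13 FPKM, and IL11, with 5.37, 6.56, 9.7 and 11.9 FPKM. For interferon-stimulated genes 7 rose (35%) and 4 fell (20%) of 20 measured (5 and 1 with the 4 mM library left out). IRF7, a master regulator of the interferon response, rose with 3.69, 5.25, 13.1 and 38.7 FPKM, and OAS3, a sensor of double-stranded RNA, fell with 17, 10.0, 7.23 and 1.35 FPKM, so this group had no common direction.

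More immediate early factors rose than fell. For the AP-1 and EGR families 11 rose (55%) and 1 fell (5%) of 20 measured (8 and 2 with the 4 mM library left out), with a median of 1.49 at 4 mM. FOS and JUND, AP-1 subunits, had 3.02, 8.24, 10.1 and 30.2 FPKM and 3.19, 4.38, 10.8 and 29.8 FPKM at 0, 1, 2 and 4 mM. FOSL1, another AP-1 subunit, was the member that fell, with 72.1, 45.2, 33.1 and 19.6 FPKM (log2 fold change -1.78 ± 0.20 SE, adjusted p = 0.00211). For genes in the feedback of the MAP kinase pathway 7 rose (41.2%) and 2 fell (11.8%) of 17 measured (4 and 0 with the 4 mM library left out). ETV5, an ETS factor, had 0.20, 0.585, 2.01 and 26.3 FPKM (log2 fold change 4.65 ± 0.49 SE, adjusted p = 0.00186), and DUSP5 and DUSP14, phosphatases, had 4.26, 6.48, 8.88 and 24 FPKM and 13.5, 16.6, 30.2 and 56.3 FPKM. YAP and TEAD targets were split, and 7 rose (36.8%) and 7 fell (36.8%) of 19 measured (4 and 3 with the 4 mM library left out). Without DMSO 3 of them rose. AXL, a receptor kinase of this list, had 64.3, 94.5, 80.6 and 14 FPKM and fell (without the 4 mM library the fitted change was 0.64), and F3, tissue factor, fell with 52, 38.2, 29.6 and 8.21 FPKM.

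Growth factor genes were divided as well. Among EGF ligands and receptors 4 rose (33.3%) and 2 fell (16.7%) of 12 measured (2 and 3 with the 4 mM library left out). HBEGF and the feedback inhibitor ERRFI1 rose, with 8.17, 6.07, 11.4 and 42.5 FPKM and 29.5, 39, 45.8 and 105 FPKM at 0, 1, 2 and 4 mM. NRG1, a ligand of ERBB3, fell with 30.1, 20.7, 6.66 and 3.75 FPKM (log2 fold change -2.84 ± 0.38 SE, adjusted p = 0.00306), and EREG, epiregulin, with 27.3, 24.2, 14.7 and 9.02 FPKM. In the TGF-β and BMP list 4 rose (19%) and 6 fell (28.6%) of 21 measured (7 and 3 with the 4 mM library left out). TGFB2 fell with 22.7, 18.5, 9.99 and 4.19 FPKM, and ID1, a BMP target, was above DMSO at 1 and 2 mM and low at 4 mM, with 375, 436, 534 and 91.4 FPKM (without the 4 mM library its fitted change was 1.02). BAMBI, a decoy receptor, rose with 2.21, 2.68, 4.39 and 11.9 FPKM, and TGFBR1, a receptor kinase, with 10.6, 15.7, 17.4 and 27.4 FPKM. For hypoxia targets 8 rose (40%) and 1 fell (5%) of 20 measured (2 and 2 with the 4 mM library left out). The member that fell was HIF1A, which is on the list although it encodes the regulator and not a target. VEGFA, the vascular growth factor, rose with 7.26, 7.03, 18.3 and 42 FPKM (log2 fold change 2.60 ± 0.33 SE, adjusted p = 0.00276).

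Among the core enzymes of glycolysis 1 rose (5.56%) and 11 fell (61.1%) of 18 measured (1 and 7 with the 4 mM library left out), the rise being that of ENO2, with a list median of -0.79 at 4 mM. GPI, which makes fructose-6-phosphate, had 90.8, 64.1, 54.4 and 24.6 FPKM at 0, 1, 2 and 4 mM (log2 fold change -1.81 ± 0.20 SE, adjusted p = 0.00201), PFKM, a phosphofructokinase, 17.6, 14.7, 10.8 and 4.95 FPKM, and LDHB, a lactate dehydrogenase subunit, 254, 226, 153 and 92.3 FPKM. In the TCA cycle 2 rose (10%) and 9 fell (45%) of 20 measured (0 and 0 with the 4 mM library left out). IDH3G and IDH3B, subunits of isocitrate dehydrogenase, had 37.3, 31.2, 28.6 and 13.7 FPKM and 56.1, 44.1, 41.8 and 26.1 FPKM, while PC, pyruvate carboxylase, rose with 5.72, 5.17, 6.4 and 12.4 FPKM. For nuclear genes of the respiratory chain 1 rose (2.04%) and 12 fell (24.5%) of 49 measured (1 and 2 with the 4 mM library left out). ATP5F1D and ATP5MC1, parts of ATP synthase, had 29.9, 19.5, 18.1 and 9.01 FPKM and 52, 35.5, 29.6 and 17.4 FPKM, and the single rise was NDUFA2, of complex I, with 7.73, 11.1, 12.9 and 23.5 FPKM. For protein genes of the mitochondrial genome 3 rose (23.1%) and 0 fell (0 at an unadjusted p under 0.05) of 13 measured (1 and 0 with the 4 mM library left out), a share of rising genes close to that over all genes. MT-CYB, MT-ND2 and MT-CO1 rose, and MT-CYB had 1135, 1446, 1939 and 2143 FPKM. With rescaled libraries or without the 1 mM library 1 of the 13 rose, and without DMSO 0 rose and 2 fell. When the 1 mM library was left out 7 glycolytic, 5 TCA cycle and 3 respiratory genes fell.

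Lipid synthesis genes fell more often than they rose. For fatty acid synthesis 3 rose (21.4%) and 8 fell (57.1%) of 14 measured (3 and 1 with the 4 mM library left out). FASN, fatty acid synthase, had 103, 64.1, 52.4 and 26.3 FPKM at 0, 1, 2 and 4 mM (log2 fold change -1.86 ± 0.20 SE, adjusted p = 0.00181), FADS2, a desaturase, 39.9, 32.2, 29.4 and 6.96 FPKM, and their regulator SREBF1 12.1, 7.91, 7.78 and 2.63 FPKM. ACSL1, which activates fatty acids, and ACSS2, an acetyl-CoA synthetase, rose with 2.14, 4.01, 7.01 and 18.5 FPKM and 9.46, 13.8, 24.8 and 34.6 FPKM. For cholesterol synthesis and uptake 3 rose (13%) and 9 fell (39.1%) of 23 measured (1 and 4 with the 4 mM library left out). SREBF2, the transcription factor that drives these genes, fell mainly at 4 mM, with 27.3, 22.3, 20.4 and 6.25 FPKM. TM7SF2, a sterol reductase, rose with 1.69, 3.93, 8.03 and 18.9 FPKM (log2 fold change 2.87 ± 0.24 SE, adjusted p = 0.00132).

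Genes for making ribosomes fell widely and from the lowest dose on. For nucleolar genes of ribosome assembly 0 rose (0 at an unadjusted p under 0.05) and 22 fell (78.6%) of 28 measured (0 and 23 with the 4 mM library left out), and the medians were -0.40, -0.77 and -1.17 at 1, 2 and 4 mM. UTP20, of the small subunit processome, had 13.4, 11.3, 6.94 and 2.72 FPKM (log2 fold change -2.03 ± 0.23 SE, adjusted p = 0.00203), RRS1 42.3, 29.4, 18.4 and 10.5 FPKM, WDR43 41.4, 30.5, 18.2 and 13 FPKM, and NOP16 53.5, 32.1, 24 and 18 FPKM. Each was lower at every step of dose. Most genes for proteins of the large ribosomal subunit were not called, and 1 rose (2.27%) and 4 fell (9.09%) of 44 measured (0 and 1 with the 4 mM library left out). RPL35 fell with 581, 554, 447 and 269.5 FPKM, and RPLP1 rose with 142, 133, 181 and 236 FPKM. With rescaled libraries 8 of them fell. For the proteasome 0 rose (0 at an unadjusted p under 0.05) and 16 fell (51.6%) of 31 measured (0 and 1 with the 4 mM library left out), with PSMA6 at 140.0, 137, 113 and 56.6 FPKM and PSMB2 at 34.4, 27.9, 25.3 and 16.2 FPKM. Without the 1 mM library 3 of them fell.

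Genes of lysosomes and autophagy rose in part, and 12 rose (38.7%) and 2 fell (6.45%) of 31 measured (12 and 0 with the 4 mM library left out). MAP1LC3B and SQSTM1, the autophagosome protein LC3 and the cargo receptor p62, had 14, 16.4, 32.5 and 113 FPKM (log2 fold change 3.07 ± 0.28 SE, adjusted p = 0.0014) and 38.5, 49, 113 and 240.1 FPKM (log2 fold change 2.74 ± 0.26 SE, adjusted p = 0.0015) at 0, 1, 2 and 4 mM. WIPI1, which helps to form autophagosomes, had 4.37, 5.97, 13.3 and 18.6 FPKM. The proteases CTSD and CTSZ fell, with 216, 77.6, 79.9 and 51.4 FPKM and 89.7, 69, 72.3 and 37.2 FPKM. Among targets of NRF2, the antioxidant response factor, 7 rose (33.3%) and 4 fell (19%) of 21 measured (9 and 1 with the 4 mM library left out). SRXN1, sulfiredoxin, rose with 27.9, 32.5, 71.6 and 168 FPKM, SLC7A11, the cystine transporter, with 10.1, 13.1, 34.9 and 48 FPKM, and HMOX1, heme oxygenase, with 1.02, 0.817, 3.04 and 10.5 FPKM. TXN, thioredoxin, and TKT, transketolase of the pentose phosphate pathway, fell with 288, 227, 226 and 147 FPKM and 86.6, 63, 54.8 and 34.4 FPKM. NQO1, a quinone reductase, had its highest value at 2 mM, with 32.3, 38.3, 51.6 and 32.7 FPKM, and was not called (log2 fold change 0.01 ± 0.33 SE, adjusted p = 0.978).

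The proteins that bind or metabolise melatonin were scarcely measured. Of 13 such genes NQO2, the quinone reductase also known as the MT3 site, was the one above the filter, and it rose with 5.0, 6.68, 8.59 and 15.8 FPKM at 0, 1, 2 and 4 mM (log2 fold change 1.48 ± 0.20 SE, adjusted p = 0.00311). The receptor gene MTNR1A was at or under 0.111 FPKM, and MTNR1B was listed at 0 in all 4 libraries. CYP1A1 and CYP1B1, which hydroxylate melatonin and are targets of the aryl hydrocarbon receptor, were under the filter, with 2.4, 0.421, 0.387 and 0.18 FPKM and 1.74, 0.525, 0.366 and 0.0516 FPKM, in both cases highest in DMSO. Of the 4 measured genes of the aryl hydrocarbon receptor list (AHR, ARNT, TIPARP and NQO1) limma called 0, and at an unadjusted p under 0.05 0 were up and 0 down. Among clock genes 3 rose (21.4%) and 2 fell (14.3%) of 14 measured (1 and 0 with the 4 mM library left out). NFIL3 and ARNTL, which encodes BMAL1, rose at 4 mM, with 11.6, 13.2, 16.6 and 54.3 FPKM and 6.3, 4.22, 5.9 and 24.6 FPKM, and PER1 rose with 1.03, 1.26, 1.88 and 3.49 FPKM. TEF and PER2 fell, with 4.19, 5.0, 5.0 and 0.581 FPKM and 4.47, 3.29, 2.97 and 0.89 FPKM. With the 4 mM library left out the fitted changes of ARNTL and TEF were -0.16 and 0.42.

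Cytoskeletal genes changed isotype by isotype. Of the tubulins 2 rose (20%) and 4 fell (40%) of 10 measured (3 and 4 with the 4 mM library left out). TUBA1B, TUBB and TUBA4A had 1439, 1162, 708 and 235 FPKM, 807, 684, 455 and 147 FPKM and 108, 69.6, 41.3 and 11.2 FPKM at 0, 1, 2 and 4 mM, each lower at every step (log2 fold change -2.53 ± 0.27 SE, adjusted p = 0.00188 for TUBB). TUBB3, the neuronal β-tubulin, rose with 8.16, 19.9, 26.7 and 48.8 FPKM (log2 fold change 2.29 ± 0.31 SE, adjusted p = 0.00316), and TUBB2A with 4.05, 7.16, 8.15 and 12.8 FPKM. Tubulin genes are similar in sequence, so their split is uncertain. Among actin genes and actin-binding proteins 2 rose (10%) and 9 fell (45%) of 20 measured (0 and 5 with the 4 mM library left out). CNN2, a calponin, and TPM4, a tropomyosin, fell with 239, 158, 122 and 53.4 FPKM and 125, 118, 88 and 39.4 FPKM, and FLNA, filamin A, rose with 248, 243, 285 and 453 FPKM. Among metallothionein and zinc transporter genes 1 rose (16.7%) and 2 fell (33.3%) of 6 measured (1 and 1 with the 4 mM library left out). SLC39A10, a zinc importer, fell with 15.7, 12.2, 6.53 and 4.08 FPKM. Of the metallothioneins MT1F fell with 6.12, 4.1, 4.78 and 1.44 FPKM and MT1X rose with 29.5, 44.6, 44 and 53.6 FPKM, in a family of close paralogs. For AMPK subunits 3 rose (42.9%) and 1 fell (14.3%) of 7 measured (1 and 0 with the 4 mM library left out). PRKAA1, a catalytic subunit, fell with 25.7, 30.9, 25.4 and 10.5 FPKM, and PRKAB1, PRKAB2 and PRKAG1 rose, the widest PRKAB1 with 9.22, 9.48, 14.2 and 23.8 FPKM.

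The slope over dose was then compared with that of UM-UC3 cells over all 8 libraries. Of 12649 genes, 1936 had a slope that was higher (15.3%) and 1313 a slope that was lower (10.4%) in 5637 than in UM-UC3 cells at an adjusted p under 0.05 by limma. Among the 10778 genes with a mean of at least 1 FPKM in each line 1577 were higher (14.6%) and 1048 lower (9.72%). The medium differs between the lines and cannot be told apart from the line. The genes named next were also called in the 5637 trend. They had a mean of at least 5 FPKM over the 8 libraries. Genes with a trend in UM-UC3 cells that were not called in 5637 cells were thus not eligible. CHAC1 had 0.553, 3.51, 25.3 and 124 FPKM in 5637 cells and 7.42, 11.8, 15.2 and 10.4 FPKM in UM-UC3 cells, at 0, 1, 2 and 4 mM (slope difference 6.09 ± 0.70 SE, adjusted p = 0.00153). TP53INP2, an autophagy regulator, had 2.65, 4.49, 13.4 and 26.7 FPKM in 5637 cells and 19.1, 10.2, 4.99 and 1.93 FPKM in UM-UC3 cells, so that it rose in 5637 cells while every step of dose was lower in UM-UC3 cells (5.79 ± 0.43 SE, adjusted p = 0.000222). ASNS had 5.09, 26, 166 and 596 FPKM in 5637 cells and 162, 188, 289.7 and 515 FPKM in UM-UC3 cells, so UM-UC3 cells began at a level that 5637 cells reached at 2 mM (4.88 ± 0.88 SE, adjusted p = 0.00923). MAP1B, a microtubule-associated protein, had 0.716, 2.93, 12.6 and 53.5 FPKM in 5637 cells and 35.5, 37.4, 45.9 and 51.9 FPKM in UM-UC3 cells, and it too met the level of the other line at 4 mM (4.49 ± 0.36 SE, adjusted p = 0.000315). DLGAP1-AS2, a noncoding RNA, had 1.13, 0.88, 1.59 and 3.04 FPKM in 5637 cells and 21.3, 9.55, 7.36 and 0.983 FPKM in UM-UC3 cells (4.42 ± 0.41 SE, adjusted p = 0.000538). Its mean in 5637 cells was 1.66 FPKM, so it met the mean of 5 FPKM over the 8 libraries through UM-UC3 cells. The slopes were 1.04 in 5637 and -3.38 in UM-UC3 cells, so most of the difference was the fall in UM-UC3 cells.

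Among the 5 genes so chosen with the widest negative differences, 4 were close to 0 in every UM-UC3 library. They passed the filter through 5637 cells alone, so their difference repeats the fall in 5637 cells by which they were chosen, and it is given with no test. MPPED2, a metallophosphoesterase, had 44.5, 24.2, 9.44 and 1.37 FPKM at 0, 1, 2 and 4 mM in 5637 cells (slope difference -4.33). FAT2, an atypical cadherin of squamous epithelium, had 23.9, 21.4, 7.89 and 0.547 FPKM (-4.23), and MIR205HG, the host transcript of a microRNA of basal epithelium, had 29.1, 17.4, 8.94 and 0.831 FPKM (-4.07). FST, described above, had a difference of -4.53. HSPA1B, an inducible HSP70, rose in both lines, with 34.4, 41.5, 45.3 and 66.2 FPKM in 5637 cells and 3.07, 3.45, 5.6 and 179 FPKM in UM-UC3 cells, and its adjusted p was close to the threshold (slope difference -4.76 ± 1.33 SE, adjusted p = 0.0453). HSPA1B shares nearly all its sequence with HSPA1A, and the split of their reads is uncertain. Without the 5637 library at 4 mM 446 slopes were higher and 220 lower. The same counts were 41 and 22 when the 4 mM library of UM-UC3 cells was left out. Of the 6 genes named here that were measured in both lines, TP53INP2 and MAP1B kept their call then. ASNS, CHAC1 and DLGAP1-AS2 were not called, with differences of 4.94, 4.57 and 3.87, and that of HSPA1B was -0.49.

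**Figure D5:**
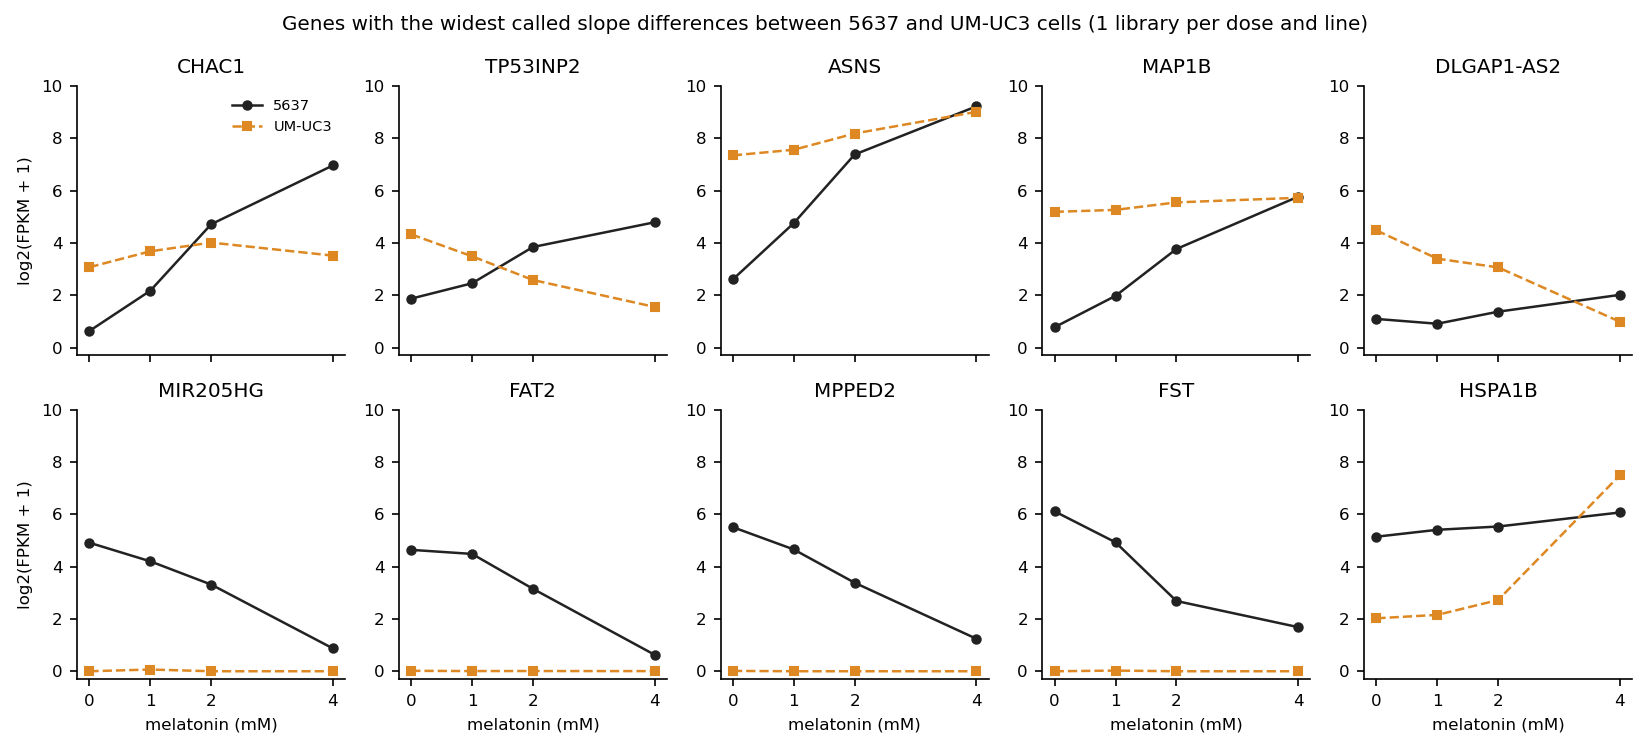
log2(FPKM + 1) over melatonin dose (mM) in 5637 cells (black, circles) and UM-UC3 cells (orange, squares) for the 5 genes with the most positive (top) and the 5 with the most negative (bottom) slope differences, 1 point per library. They were taken among genes called in the 5637 trend, with a mean of at least 5 FPKM over the 8 libraries. ASNS and MAP1B in 5637 cells meet the UM-UC3 level at 4 mM, and MIR205HG, FAT2, MPPED2 and FST are near 0 in all UM-UC3 libraries.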

How the data were processed

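RNA-seq of 5637 cells (4 libraries, melatonin at 0, 1, 2 and 4 mM) and of UM-UC3 cells (4 libraries) was taken as deposited, with groups from the sample labels. Per the methods, the authors made directional poly(A) libraries, trimmed the reads and aligned them to GRCh38 with HISAT2, and the submitters' processing notes list CASAVA 1.8, Trimmomatic, FastQC, StringTie and edgeR as well. The authors deposited 1 value per gene and library, taken to be FPKM because the values are not whole and StringTie writes FPKM. The sources used here give no annotation release. No counts were recovered, the depth is unknown, and no counting interval was given. A second sheet repeats 22465 genes with the same values, and another sheet holds correlations between the libraries, and neither was used.

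Values were set to log2(FPKM + 1). Genes with a mean of at least 1 FPKM in 5637 cells were fitted by limma 3.58.1 under R 4.3.3 (robust eBayes with a trend, dose divided by 4, 2 residual degrees of freedom), and p-values were adjusted by Benjamini-Hochberg over 12405 genes. The comparison of slopes used all 8 libraries, a level and a slope per line, and 12649 genes with a mean of at least 1 over the 8. Tables and figures were made with Python 3.11.15, pandas 2.3.3 and matplotlib 3.10.9.

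The members and the 48 gene lists, with 991 genes, were chosen with earlier results of these data known. Named genes are the 3 widest of each dose shape and direction with a mean of at least 5 FPKM, the genes the study followed, up to 4 members of each list with the widest difference at 4 mM and any member where 5 or fewer rose or fell, the 5 most positive and 5 most negative called slope differences, and the 4 genes nearest to the filter. Genes with clone-style names and no symbol were left out of the first and of the slope differences. A few genes that the rule names are not reported here. CYP1A1 and CYP1B1 are under the filter and were picked after their values were seen. Lists were described by counts and medians, with no set test. Promoters are from the RefSeq table (GRCh38.p14), with 1 promoter per symbol.

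In a test on simulated data for the trend in 5637 cells, with 200 changed genes of 12405, 0% of changes with a log2 fold of 1, 50% with 2 and 79.5% with 3 were recovered, and 0, 1.96 and 0.625% of the calls were false. In the libraries themselves limma called 4812 genes (38.8%). Recovery and false calls with that many changed genes were not tested. The alternatives were a pseudocount of 0.1, trimmed mean factors, a mean of at least 5 FPKM, no filter, log2(dose + 1), all 8 libraries, each library left out, and other limits for the dose shapes.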

Additional observations from a re-analysis of the deposited data

Results flagged for a closer look

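The slopes over dose of 6 named genes measured in both lines differed between 5637 and UM-UC3 cells by limma's test of the difference. The differences, 5637 minus UM-UC3, were 6.09 for CHAC1, 5.79 for TP53INP2, 4.88 for ASNS, 4.49 for MAP1B, 4.42 for DLGAP1-AS2 and -4.76 for HSPA1B. DLGAP1-AS2 met the mean of 5 FPKM for naming through UM-UC3 cells, and most of its difference was the fall in that line. When each 5637 library was left out in turn, 5 of the 6 calls held each time, all but that of HSPA1B (adjusted p between 0.0698 and 0.316). When the 4 mM library of UM-UC3 cells was left out 2 held, those of TP53INP2 and MAP1B, with adjusted p of 0.0572 to 0.588 for DLGAP1-AS2, CHAC1, ASNS and HSPA1B, and a difference of -0.49 for HSPA1B. FST, MPPED2, FAT2 and MIR205HG, at or under 0.0462 FPKM in all UM-UC3 libraries, were given no test. No group has 4 libraries of 1 dose, so no library could be set against replicates.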

How the results depend on the processing

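The counts of genes that rose or fell with dose were 665 and 508 with no filter and 996 and 740 with log2(dose + 1), and with each library left out in turn they ran between 1301 and 2819 and between 810 and 2723, lowest without the 4 mM library. No filter enters 29255 genes, most of them near 0, into the adjustment. With all 8 libraries, a pseudocount of 0.1, trimmed mean factors or a mean of at least 5 FPKM they stayed within 1.5 times. Slopes that were higher or lower in 5637 than in UM-UC3 cells ran between 41 and 2099 and between 22 and 1487 with 1 library left out. At 1 mM 186 genes were at least 2-fold higher and 219 lower with a pseudocount of 0.1, and 25 and 65 with a mean of at least 5 FPKM. At 2 mM 781 were higher with the pseudocount of 0.1, and 251 were higher and 159 lower with the stricter filter.

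For the dose shapes, a range of at least 2 left 263 graded up and 176 down, 4 and 26 early, 58 and 63 only at 4 mM, and 15 and 16 non-monotone. With a pseudocount of 0.1 there were 213 early up and 362 and 425 non-monotone, with a mean of at least 5 FPKM 57 and 54 early, 165 up only at 4 mM and 72 and 120 non-monotone, and with a reversal limit of 10% 329 and 462 non-monotone. Of 82 list counts above 0, 57 moved by over 1.5 times without the 4 mM library, 33 without that of 1 mM, 21 without DMSO and 5 without that of 2 mM, mostly downwards. The cause was not tested.

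Signs turned for a few named genes when 1 library was left out, and their lowest and highest fitted changes were -8.37 and 0.67 for MMP10, -7.59 and 0.83 for MMP1, -1.98 and 0.34 for CDH2, -0.41 and 3.04 for HSPA5, -0.34 and 1.74 for GINS4, -3.75 and 0.64 for AXL, -0.15 and 3.24 for KRT16, -3.29 and 1.02 for ID1, -0.44 and 1.32 for NQO1, -0.16 and 3.16 for ARNTL, -2.75 and 0.42 for TEF and -0.96 and 4.68 for BCL2A1. Fitted changes and slope differences with a 4 mM library left out extend a line over 0 to 2 mM to a span of 4 mM. MMP10, with -8.37 in that fit, had a difference from DMSO of -4.18 at 2 mM. With trimmed mean factors NQO1 had -0.0327. No paired analysis was possible because the groups compared, of 1 library each, share fewer than 2 replicate numbers, and cell line was a term in the fit of all 8 libraries. With 1 library per dose and an unknown depth, a difference between neighbouring doses cannot be set against replicate error.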

Other observations

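A few gene families outside the lists were counted, and they were chosen after their values were seen. Of 402 zinc finger genes with symbols starting ZNF, which encode mostly DNA-binding repressors, 119 rose (29.6%) and 18 fell (4.48%), with a median difference of 0.43 on the log2 scale at 4 mM against DMSO, compared with 20.3 and 18.5% and 0.03 over all genes. Of 78 mitochondrial ribosomal protein genes 40 fell (51.3%) and 0 rose by limma (4 at an unadjusted p under 0.05), with a median of -0.66. Of 23 clustered histone genes 11 rose (47.8%) and 1 fell (4.35%), with a median of 1.2. Transcripts of these histone genes mostly lack a poly(A) tail, and what share of them the poly(A) libraries took up was not tested. Among 40 TRIM genes 14 rose (35%) and 6 fell (15%).

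Gene types were counted in the same way, with no test of a difference. Of 37 genes annotated as miRNA, whose values in such libraries can come from their host transcripts, 2 rose (5.41%) and 10 fell (27%), and of 91 processed pseudogenes 3 rose (3.3%) and 15 fell (16.5%). Of 662 long noncoding RNAs 121 rose (18.3%) and 81 fell (12.2%), with a median of 0.18.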
